A study of Rattus norvegicus with 46 samples.

Results

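The genes described here are 10 members of the bone morphogenetic protein (BMP) pathway in the rat duodenum: the antagonist Grem1, the ligands Bmp2, Bmp4 and Bmp6, the receptors Bmpr1a and Bmpr2, and the transcriptional targets Id1, Id2, Id3 and Smad6. They are 10 of 14217 genes named singly in the probe-to-gene annotation of the arrays, were found there by symbol, and are measured by 19 of 31042 probe sets. Of these 19, 18 passed the filter on low values, as did 26517 of all probe sets, and the exception was 1 of the 4 Bmp6 probe sets. There were 5 members with 1 probe set (Grem1, Bmp4, Bmpr1a, Id1 and Id3), 3 with 2 probe sets (Bmp2, Bmpr2 and Id2) and 2 with 4 (Bmp6 and Smad6). The probe set with the highest mean over the villus arrays stands for its gene, and the others are given where they differ. The members were chosen by their levels at the top and the bottom of the villus, so those levels are given as a description with no test. The call of Bmpr1a given below was also among the results known when the members and tests were chosen.

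BMP ligands are secreted dimers that bind a complex of type I and type II receptor kinases, which phosphorylate the transcription factors SMAD1, SMAD5 and SMAD9. These enter the nucleus with SMAD4 and switch on a short list of direct targets, among them the Id genes and the feedback inhibitor Smad6. In the intestine the pathway is known for restraining proliferation and favouring differentiation on the villus, while secreted antagonists such as gremlin 1, made by muscle and other stromal cells beneath the crypts, keep ligands away from the stem cells.

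RNA came from cryostat sections cut across the crypt-villus axis of a 1 cm piece of duodenum, pooled as villus top and villus bottom, so each rat gave 1 array per segment and all rats had fasted overnight. Belgrade rats, which carry a mutation of the iron transporter gene Slc11a2 in all their cells on a Wistar background, formed 3 groups: 4 rats on the normal diet without added iron (called unfed in the plots), 4 that received iron over their last 3 days and 3 that received it over 6 days. The Wistar rats, aged 1 month when they were grouped, were 3 iron-repleted, 4 iron-deficient and 4 control rats. Deficient and repleted rats had a low-iron diet and lost 2 to 3 ml of blood every 3 days for 4 weeks, the repleted rats then drank 50 µM ferric ammonium citrate for their last 3 days, and the controls ate the normal diet. The labels do not state how old the Belgrade rats were, so genotype and age cannot be told apart. In 1 further Wistar rat, from a separate experiment, 2 arrays were labelled upper crypt and lower crypt. Levels are log2 normalized intensities, and every difference is a difference of log2 levels.

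Array medians of the deposited intensities lay between 597 and 1179. Rats 1 and 2 of the control group were nearly identical in both segments, as were rats 1 and 2 of the Belgrade group without added iron, so each pair was averaged and counted once, which left 20 counted samples from 22 rats. The bottom arrays of iron-repleted rat 3 and control rat 3 stood apart from the others, with smooth muscle scores of 16.04 and 15.68, enteric nerve and glia scores of 12.63 and 11.89 and villus enterocyte scores of 11.48 and 11.94. Exocrine pancreas markers, the mean of 6 digestive enzyme genes, were high in another 5 of the 20 counted samples, with bottom scores of 13.29 in Belgrade rat 3 without added iron, 13.47 in Belgrade rat 4 with 3 days of iron, 12.83 in Belgrade rat 2 with 6 days, 16.07 in deficient rat 1 and 14.88 in both averaged control rats, against 7.81 to 9.27 in the other 15. All 5 are Belgrade, deficient or control samples, and values without them stand beside the results of Grem1, Bmp4 and Bmpr1a below. The villus bottom sections carried crypt and cycling cell markers (mean score 9.43 at the top and 12.29 at the bottom, with all 7 measured genes lower at the top). The array labelled upper crypt went against its label in these marker scores. Its crypt and cycling score was 9.94 and its enterocyte score 16.26, close to the villus top (16.35). The array labelled lower crypt had 12.15 and 14.75. Not every gene matched the villus top: Bmp2, at 11.97 on the array labelled upper crypt, lay below every villus top level (12.94 to 14.10). Over all kept probe sets the array labelled upper crypt correlated with the mean villus top at r = 0.930 and with the mean villus bottom at r = 0.896, and the array labelled lower crypt at 0.893 and 0.953. Its values are therefore given under its label only.

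Of the 10 genes, 9 had a higher mean level at the villus top than at the bottom, as did 51.1% of kept probe sets, and Grem1 had a lower one. The median of the 10 top minus bottom differences was 1.04, beside 0.02 over all kept probe sets. Bmp2, Bmp6, Id1 and Id3 were higher at the top in all 20 counted samples, as were 8.59% of kept probe sets, and Grem1 was lower at the top in all 20, as were 11.3%. The levels at top and bottom did not overlap for Bmp2 and Bmp6, with the top higher (3.01% of kept probe sets), or for Grem1, with the top lower (5.19%). Because the contrast chose the members, nothing is read from these counts. In bulk sections a lower level cannot tell fewer cells of a type from less RNA per cell.

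**Figure D1:**
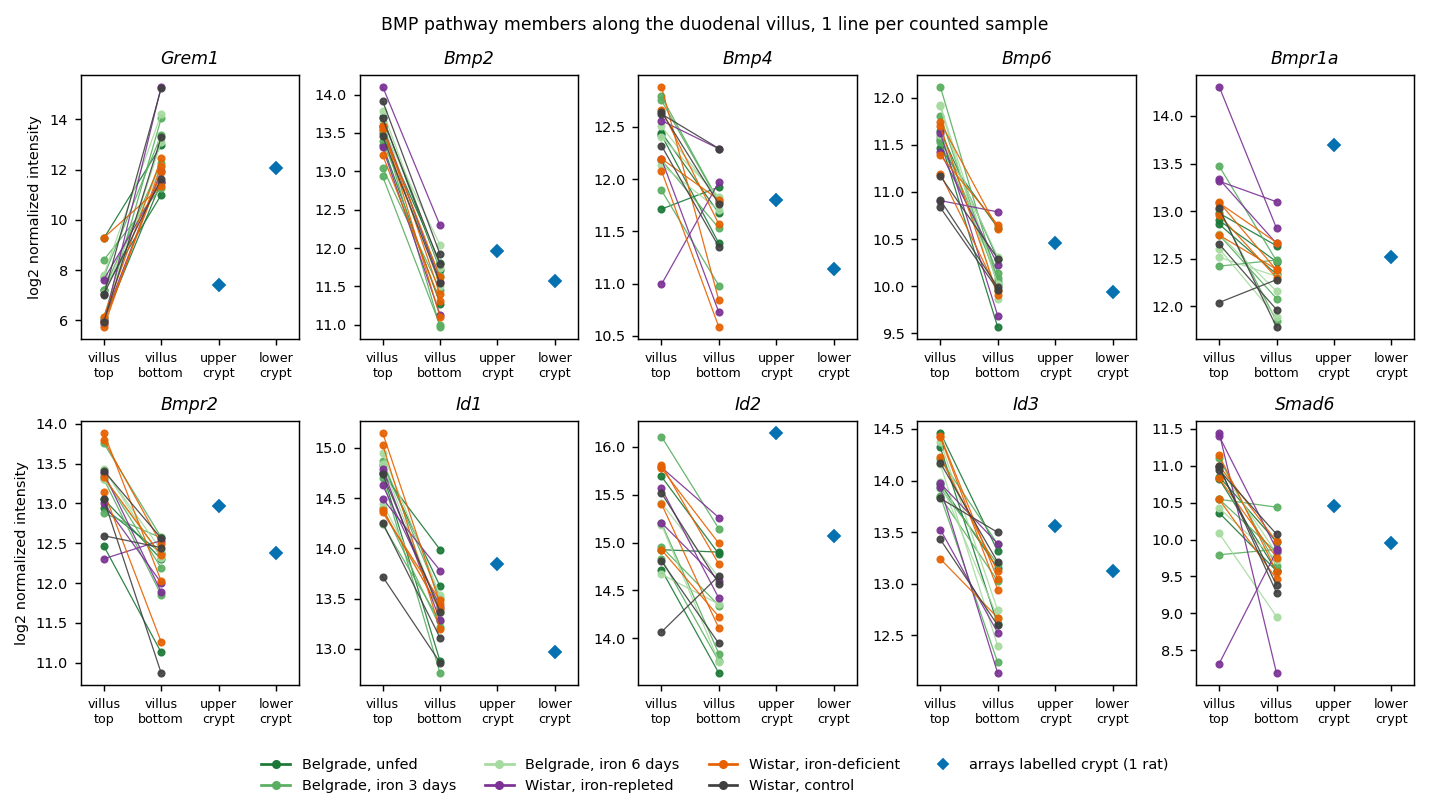
Levels of the 10 genes, as log2 normalized intensity on each vertical axis, with villus top left of villus bottom, 1 line per counted sample coloured by group, and blue diamonds for the 2 arrays labelled crypt. Grem1 lay between 5.73 and 9.29 at the top and between 10.99 and 15.30 at the bottom, while the mean of each of the other 9 genes was higher at the top.

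Grem1, the secreted antagonist that binds BMP2 and BMP4, was close to the floor of the arrays at the villus top and among their brighter transcripts at the villus bottom. Its deposited intensity was 7.80 to 590 at the top (median 60.1) and 2054 to 33868 at the bottom (median 4612). It exceeded the 40th percentile of its array in 2 of 22 top arrays and in 22 of 22 bottom arrays. The 2 top arrays above that line had the levels 9.29, in iron-deficient rat 4, and 9.26, in Belgrade rat 3 without added iron.

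In Belgrade rats without added iron Grem1 stood at 7.22, 9.26 and 5.97 at the top, against 10.99, 12.96 and 11.51 at the bottom. Belgrade rats fed iron for 3 days had 7.74, 8.40, 6.08 and 7.23 at the top, against 13.38, 11.28, 14.03 and 12.27 at the bottom. After 6 days of iron the Belgrade rats had 7.82, 7.08 and 6.14 at the top, against 14.21, 12.12 and 13.09 at the bottom. Every Belgrade bottom level thus exceeded every Belgrade top level. Iron-repleted Wistar rats had Grem1 levels of 6.03, 7.62 and 5.87 at the top, against 11.96, 11.52 and 15.30 at the bottom. Iron-deficient rats had 5.93, 5.73, 6.15 and 9.29 at the top, against 11.88, 12.15, 12.45 and 11.33 at the bottom. Control rats had 7.04, 7.0 and 5.94 at the top, against 11.64, 15.23 and 13.29 at the bottom. The 2 highest bottom levels belonged to the 2 rats with the highest smooth muscle scores, repleted rat 3 and control rat 3.

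The mean top minus bottom difference of Grem1 was -5.65 ± 1.86 (SD, n = 20), with a range of -9.42 to -2.04. As a ratio on this scale the bottom was 50.3-fold higher, a figure that depends on the pseudocount because the top values are so dim: the difference was -4.56 with a pseudocount 4 times as large and -6.29 with one 4 times smaller. Leaving out the 2 rats whose bottom arrays stood apart gave -5.30, and leaving out the 5 samples rich in pancreas markers -5.91. In the separate rat Grem1 was 7.40 on the array labelled upper crypt and 12.05 on the array labelled lower crypt, or 119 and 4336 intensity units.

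The Grem1 promoter is shown because it can be set beside those of the Id genes, which run the other way along the villus. It was taken from the RefSeq table of the GRCr8 build, in which 8 of the 10 members (not Bmp2 and Smad6) matched by symbol, as the 250 bases upstream of the gene start (chr3:120978320-120978569, minus strand). Capitals mark GGCGCC, a GC-rich element that SMAD1 can bind, which begins 91 bases upstream of the start.
Grem1: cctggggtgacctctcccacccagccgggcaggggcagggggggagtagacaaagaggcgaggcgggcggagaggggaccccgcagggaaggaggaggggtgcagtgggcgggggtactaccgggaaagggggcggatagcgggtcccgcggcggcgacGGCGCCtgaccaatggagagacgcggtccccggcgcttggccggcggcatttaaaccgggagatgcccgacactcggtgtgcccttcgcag
GGCGCC, GTCTAGAC and CAGACA were searched on both strands, and no member's window held more than 1 of them, so no matches overlapped. GGCGCC is present in 8.69% of the 33469 promoter windows of this length, CAGACA in 17.2% and GTCTAGAC in 0.173%. Among the 8 members with a window, Grem1 and Bmp4 held a match (in Bmp4 CAGACA, 36 bases upstream). A match of these letters is a description of the window and not a binding site.

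The ligands ran opposite to Grem1. Bmp2, a ligand of the mature villus, had the narrowest spread of all: the difference between top and bottom was 1.98 ± 0.26 (SD, n = 20), with means of 13.52 at the top and 11.54 at the bottom. In Belgrade rats Bmp2 stood at 13.71, 13.49 and 13.34 at the top without added iron, against 11.72, 11.81 and 11.27 at the bottom. After 3 days of iron it was 13.53, 12.94, 13.39 and 13.05 at the top, against 10.97, 10.99, 11.63 and 11.46 at the bottom, and after 6 days 13.79, 13.64 and 13.57, against 11.74, 11.50 and 12.04. The lowest Belgrade top level was thus 12.94 and the highest Belgrade bottom level 12.04. Repleted Wistar rats had Bmp2 at 13.31, 13.59 and 14.10 at the top, against 11.13, 11.56 and 12.29 at the bottom. Deficient rats had 13.59, 13.59, 13.21 and 13.55 at the top, against 11.40, 11.11, 11.31 and 11.62 at the bottom, and control rats 13.69, 13.45 and 13.92, against 11.79, 11.54 and 11.92. Repleted rat 3 was highest in both segments. The second Bmp2 probe set differed by 2.70 ± 1.21 (SD, n = 20), also higher at the top in 20 of 20, with overlap between the segments. It was dim at the bottom, where it exceeded the 40th percentile of its array in 10 of 22 arrays.

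Bmp6, the ligand through which liver endothelium signals iron load to hepatocytes, was higher at the top by 1.35 ± 0.53 (SD, n = 20), with means of 11.50 at the top and 10.15 at the bottom. Belgrade rats without added iron had 11.55, 11.47 and 11.65 at the top, against 9.57, 10.62 and 10.29 at the bottom. With 3 days of iron the levels were 11.59, 12.12, 11.80 and 11.53, against 10.14, 10.06, 10.03 and 10.09, and with 6 days 11.91, 11.60 and 11.92, against 9.87, 10.31 and 10.02. The 3 highest top levels of Bmp6 were those of iron-fed Belgrade rats. Repleted Wistar rats had 11.63, 11.42 and 10.91 at the top, against 9.69, 10.23 and 10.79 at the bottom, so that rat 3 had a difference of only 0.12. Deficient rats had 11.74, 11.39, 11.19 and 11.69 at the top, against 10.61, 10.65, 9.95 and 9.91 at the bottom. Control rats had the lowest top mean, with 10.92, 10.83 and 11.17, against 9.99, 9.96 and 10.29 at the bottom. A second Bmp6 probe set differed by 1.35 ± 0.79 (higher at the top in 19 of 20), another by 0.55 ± 1.28 (15 of 20) and the one that failed the filter by 0.32 ± 0.70 (13 of 20). The last 2 were dim. They exceeded the 40th percentile of their array in 4 and 0 of 22 top arrays, and in 0 of 22 bottom arrays.

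Bmp4, a ligand of the villus and crypt mesenchyme, was higher at the top by 0.74 ± 0.64 (SD, n = 20), in 18 of 20 samples, with means of 12.32 at the top and 11.58 at the bottom. The 2 exceptions were repleted rat 3, with 10.99 at the top and 11.97 at the bottom, and Belgrade rat 3 without added iron, with 11.71 and 11.92. In the separate rat all 3 ligands were higher on the array labelled upper crypt than on that labelled lower crypt, with Bmp2 at 11.97 and 11.58, Bmp4 at 11.80 and 11.14 and Bmp6 at 10.46 and 9.94. Both Bmp2 values lay below every villus top level.

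Among the receptors, Bmpr2, the type II receptor kinase, was higher at the top by 1.07 ± 0.59 (SD, n = 20), in 19 of 20 samples, with means of 13.19 at the top and 12.12 at the bottom. Its second probe set was dim and differed by 0.57 ± 1.58 (12 of 20). Bmpr1a, the type I receptor of BMP2 and BMP4, had the smallest mean difference of the 10 genes, 0.59 ± 0.42 (SD, n = 20), in 18 of 20 samples, with means of 12.94 at the top and 12.35 at the bottom. It was higher at the bottom in control rat 3 (12.04 at the top and 12.28 at the bottom) and in Belgrade rat 2 with 3 days of iron (12.42 and 12.48). On the arrays labelled upper and lower crypt Bmpr1a was 13.70 and 12.51, and Bmpr2 was 12.97 and 12.38.

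The Id genes encode inhibitors of DNA binding, helix-loop-helix proteins that pair with differentiation factors and keep them off DNA, and they are the classical early targets of BMP-activated SMADs. Id1 was higher at the top by 1.28 ± 0.37 (SD, n = 20), with levels of 13.72 to 15.15 at the top (median 14.72) and 12.76 to 13.99 at the bottom (median 13.37). Id3 was higher by 1.12 ± 0.44, with 13.24 to 14.46 at the top (median 13.98) and 12.13 to 13.50 at the bottom (median 12.98). For both genes every rat was higher at the top, although the ranges of the segments overlap. Id2 was higher by 0.79 ± 0.47, in 19 of 20 samples, and by 1.37 ± 0.43 in 20 of 20 by its second probe set. The exception was control rat 3, with 14.06 at the top and 14.65 at the bottom. On the arrays labelled upper and lower crypt Id1 was 13.84 and 12.97, Id2 16.15 and 15.07, and Id3 13.56 and 13.12.

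The promoters of the 3 Id genes are shown for comparison with that of Grem1, as 250 bases upstream of the start in GRCr8 (RefSeq): Id1 at chr3:161671314-161671563 (plus strand), Id2 at chr6:47470996-47471245 (minus strand) and Id3 at chr5:153656041-153656290 (plus strand). None of the 3 motifs occurs in these windows, so no letters are in capitals, which says nothing of elements farther from the start.
Id1: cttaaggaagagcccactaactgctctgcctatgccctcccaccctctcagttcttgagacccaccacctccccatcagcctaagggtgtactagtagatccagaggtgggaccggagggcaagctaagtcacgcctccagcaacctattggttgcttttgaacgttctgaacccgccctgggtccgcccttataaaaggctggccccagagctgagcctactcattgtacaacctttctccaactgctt
Id2: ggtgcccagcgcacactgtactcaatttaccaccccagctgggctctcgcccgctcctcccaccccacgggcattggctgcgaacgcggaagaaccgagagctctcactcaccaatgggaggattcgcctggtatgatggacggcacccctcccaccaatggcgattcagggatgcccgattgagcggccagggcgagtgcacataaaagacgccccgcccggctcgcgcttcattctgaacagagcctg
Id3: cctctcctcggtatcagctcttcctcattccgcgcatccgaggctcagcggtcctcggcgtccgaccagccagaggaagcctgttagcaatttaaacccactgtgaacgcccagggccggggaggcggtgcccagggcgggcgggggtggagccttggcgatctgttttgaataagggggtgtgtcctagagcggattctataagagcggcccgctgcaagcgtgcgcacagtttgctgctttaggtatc

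Smad6, the inhibitory SMAD that blocks type I receptors, was higher at the top by 1.02 ± 0.90 (SD, n = 20), in 18 of 20 samples, with means of 10.65 at the top and 9.64 at the bottom. Repleted rats gave both extremes, with a difference of 3.26 in rat 1 and -1.53 in rat 3 (8.32 at the top and 9.84 at the bottom). Its other probe sets differed by 1.23 ± 0.52 (20 of 20), 0.75 ± 1.21 (17 of 20) and 0.03 ± 1.83 (9 of 20), so the 4 probe sets disagree. The last 2 were dim. They exceeded the 40th percentile of their array in 12 and 3 of 22 top arrays, and in 3 and 0 of 22 bottom arrays. On the arrays labelled upper and lower crypt Smad6 was 10.46 and 9.95. There, 9 of the 10 genes were higher on the array labelled upper crypt, beside 50.4% of kept probe sets, with no replicate.

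**Figure D2:**
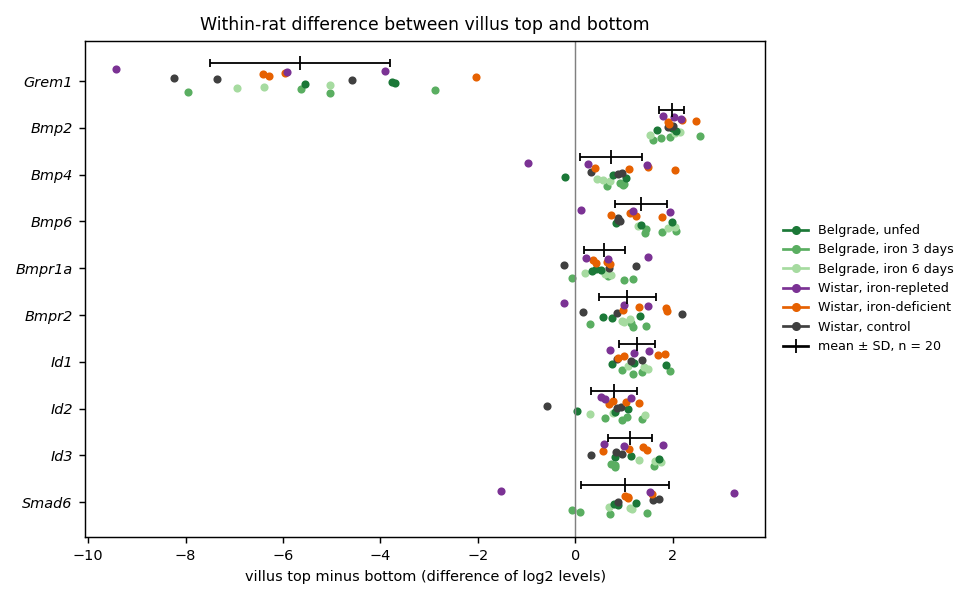
Difference of log2 levels between villus top and bottom within each counted sample (horizontal axis), 1 row per gene, points coloured by group, and bars for the mean ± SD of the 20. Grem1 lies at -5.65 ± 1.86, and the other 9 means lie between 0.59 and 1.98.

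Other genes of the pathway, 49 listed and 41 measured, were divided along the villus: 22 had a higher mean at the top and 19 a lower one, and 15 and 12 of these passed the limma threshold of an adjusted p under 0.05, beside 54.2% of all kept probe sets. Those with the largest differences upward were the ligand Bmp8a (3.88), the activin subunit Inhba (2.57), the inhibitory SMAD Smad7 (2.23) and the decoy receptor Bambi (2.13). Downward they were Bmp3, a ligand that opposes BMP signalling (-2.98), the BMP co-receptors Rgma (-2.81) and Rgmb (-1.84), and the dim antagonist Chrdl1 (-1.64). The signal-transducing Smad1 and Smad5 were lower at the top in 20 of 20 samples, by -0.69 ± 0.20 and -0.81 ± 0.31 (SD). Id4, the remaining Id gene, was lower as well (-1.38 ± 0.59, 20 of 20), opposite to Id1, Id2 and Id3. The antagonist Nog was dim in both segments and differed by -0.11 ± 1.40.

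The smooth muscle content of each section was measured as the mean log2 level of 14 contractile genes. The score was 11.46 to 12.31 at the top (mean 12.02 ± 0.23) and 12.01 to 16.04 at the bottom (13.26 ± 1.06, SD, n = 20), and it was lower at the top in 18 of 20 samples. All 14 genes had a lower mean at the top, from Actg2 (-2.17) to Acta2 (-0.20, lower at the top in only 9 of 20). Enteric nerve and glia markers were also lower at the top (7.81 at the top and 9.94 at the bottom), while fibroblast and matrix markers differed little (13.17 and 13.47) and endothelial markers were higher at the top (10.96 and 10.51).

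Within the bottom arrays, which were fitted alone with the 6 group means taken out, Grem1 followed the smooth muscle score. Its level was higher by 1.19 ± 0.11 (SE, 95% interval 0.96 to 1.42) for each unit of the score, with a limma adjusted p of 4.94e-07. It was the only 1 of the 18 member probe sets called, beside 10.8% of all kept probe sets. Without repleted rat 3 and control rat 3 the slope was 1.27 ± 0.21 (limma adjusted p = 0.0102), when 0.207% of all kept probe sets were called. Without the 5 samples rich in pancreas markers it was 1.13 ± 0.12 (limma adjusted p = 5.47e-05), with 6.87% of all called. With the fibroblast and matrix score in place of the muscle score the slope was 2.05 (limma adjusted p = 1.04e-04). The share of all kept probe sets called on that score is not given. Muscle and other stroma cannot be told apart in these arrays.

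No other member was called on the score in the bottom arrays. The slope was 0.14 ± 0.08 for Bmp2 (limma adjusted p = 0.316), 0.23 ± 0.12 for Bmpr2 (0.244) and 0.20 ± 0.11 for Id2 (0.309). By its second probe set, which was dim in the bottom arrays, Bmp2 had a steeper slope, 0.52 ± 0.22 (limma adjusted p = 0.153). Id1 had 0.08 ± 0.07 (limma adjusted p = 0.603), Id3 -0.02 ± 0.10 (0.950), Bmpr1a -0.03 ± 0.06 (0.872) and Smad6 -0.06 ± 0.13 (0.843). Bmp4 and Bmp6 had 0.10 ± 0.11 and 0.13 ± 0.10 (limma adjusted p = 0.670 and 0.477). Grem1 was the member whose bottom level differed most between rats (SD 1.28) and the only one called on the muscle score. Of the 18 member probe sets, 2 had an unadjusted p under 0.05 in this limma fit, as had 22.5% of all kept probe sets.

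At the villus top, where the score spans less than 1 unit, limma called 0 of the 18 member probe sets, beside 0.0264% of all, and 7 of the 18 had an unadjusted p under 0.05, as had 14.1% of all kept probe sets. Grem1 had a slope of 0.75 ± 1.32 (limma adjusted p = 0.840). Bmp4 had 1.36 ± 0.34 and Smad6 2.22 ± 0.57 (limma adjusted p = 0.0913 and 0.0958), and without repleted rat 3 and Belgrade rat 1 with 3 days of iron these slopes were 0.77 and 0.35. With median centring 5 probe sets were called, 1 of Smad6, 1 of Bmp4, 2 of Bmp6 and 1 of Bmpr2, when 2716 of all kept probe sets were. Bmp4 was called without iron-deficient rat 1 (1.63, limma adjusted p = 0.0460), where the share of all kept probe sets called is not given. It was also called without the 5 samples rich in pancreas markers (1.69, limma adjusted p = 0.0374, with 1.57% of all kept probe sets called).

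**Figure D3:**
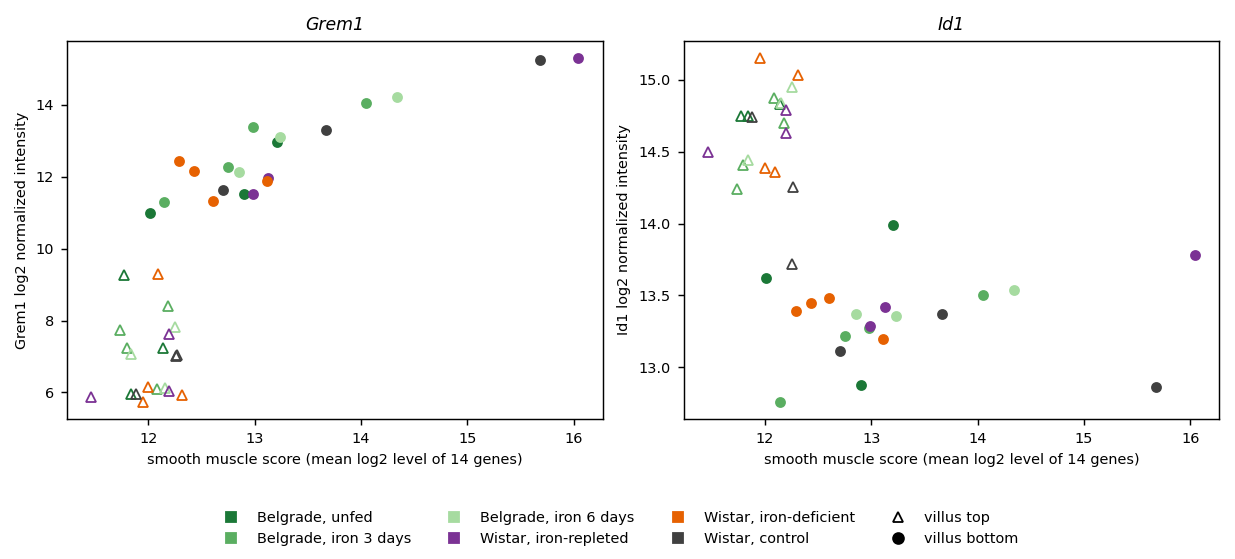
Levels of Grem1 (left) and Id1 (right) in log2 normalized intensity against the smooth muscle score (mean log2 level of 14 genes) of the same section, with open triangles for villus top, filled circles for villus bottom and colours for the groups. In the bottom sections Grem1 is higher by 1.19 per unit of score, while Id1 has a slope of 0.08 that was not called.

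With top and bottom adjusted to an equal muscle score, Grem1 was lower at the top by a mean of -4.08, against -5.65 unadjusted. The scores barely overlapped, at 11.46 to 12.31 at the top and 12.01 to 16.04 at the bottom. An equal score therefore lies outside most samples, and whether muscle content accounts for the difference was not tested. The adjusted differences of the other 9 genes lay between 0.41 (Bmpr1a) and 2.03 (Bmp2), under the same limit. The genes whose bottom levels were most like those of Grem1 after the group means were removed were Cnn1, a calponin that is itself in the score (r = 0.96 over 20 samples, and 0.93 without the 2 samples farthest in score), Igfbp5 (0.95 and 0.92) and Fndc3b (0.95 and 0.94). These samples share their sections' muscle content. For Id2 the nearest were Sh2b3, Cct6a and Kpna1 (0.91, 0.90 and 0.89), and over the other 8 members the nearest 3 genes had r between 0.79 and 0.90.

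Of the 41 other pathway genes, 10 had a positive and 4 a negative slope called in the bottom arrays (5.03% and 5.77% of all kept probe sets were). The 4 with the lowest adjusted p were Rgmb (0.79, limma adjusted p = 7.66e-06), the type II receptor Acvr2a (-0.39, 1.45e-04), the BMP-binding protein Twsg1 (0.37, 2.39e-04) and Inhba (0.71, 0.00125). Without repleted rat 3 and control rat 3 limma called 0 of the 41, and the slopes of these 4 were then 0.55, -0.26, 0.33 and 0.46.

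The diet and genotype groups were compared to ask which members follow iron supply, with top and bottom of a sample averaged, in 1 limma fit of all 6 groups. Limma called 0 members in iron-deficient against control Wistar rats (0.404% of all kept probe sets were called), 0 in repleted against deficient rats (0%), 1 in repleted against control rats (0.0679%) and 0 in Belgrade rats without added iron against control rats (0.0113%). It called 0 in Belgrade rats without added iron against deficient Wistar rats, and 0 after 3 or 6 days of iron against Belgrade rats without it (0% in each of the 3). In that order 3, 2, 2, 3, 0, 0 and 0 of the 18 member probe sets had an unadjusted p under 0.05, as had 14.1%, 12.8%, 15.1%, 6.0%, 4.6%, 2.76% and 4.22% of all kept probe sets. In the top arrays alone limma called 0 members in each comparison, beside 0.977%, 0%, 0.207%, 0.0905%, 0%, 0% and 0% of all kept probe sets in the same order. In the bottom arrays alone it also called 0 members, beside 0%, 0%, 0%, 0.00377%, 0%, 0% and 0.00377%. Between 0 and 3 member probe sets had an unadjusted p under 0.05 in these 14 comparisons, as had 2.06% to 15.4% of all kept probe sets. Of the 41 other pathway genes 0 were called in any of the 7, with 7, 1, 3, 2, 2, 1 and 1 at an unadjusted p under 0.05, to be read against those shares of all kept probe sets.

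The called member was Bmpr1a, at 13.00, 13.21 and 13.56 in repleted rats, against 12.31, 12.16 and 12.40 in control rats. The 2 groups did not overlap, and the difference was 0.97 ± 0.17 (SE, 95% interval 0.60 to 1.33, limma adjusted p = 0.0404). Deficient rats, at 12.57, 12.63, 12.88 and 12.74, lay between them. Their difference from control was 0.41 (limma adjusted p = 0.242), and that of repleted from deficient rats was 0.55 (limma adjusted p = 0.198). These comparisons share samples. The call of Bmpr1a was already known when the members and tests were chosen, so its p-value describes these data and is no independent test. Belgrade rats without added iron averaged 12.70 ± 0.10 (SD, n = 3), or 0.41 above control (limma adjusted p = 0.784), and with 3 and 6 days of iron the means were 12.57 ± 0.27 (n = 4) and 12.37 ± 0.11 (n = 3).

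The Bmpr1a difference between repleted and control rats was 1.08 in top arrays and 0.85 in bottom arrays (limma adjusted p = 0.0806 and 0.127). The highest single level was the top array of repleted rat 3, 14.31, which also had the lowest correlation with its own group (0.751). Without that rat the difference was 0.81 (limma adjusted p = 0.0310). The call ended without control sample 1-2, control rat 3, control rat 4 or repleted rat 2 (limma adjusted p = 0.134, 0.157, 0.0633 and 0.0689). It also ended when the shared spread lost 1 of deficient rats 1, 2 and 3 (0.0521, 0.0601 and 0.0559), Belgrade rat 3 without added iron (0.0512), Belgrade rat 3 with 3 days of iron (0.0535) or Belgrade rats 1, 2 and 3 with 6 days (0.0649, 0.0591 and 0.0591). Without the 5 samples rich in pancreas markers, which leaves 2 control samples, the difference was 0.97 with a limma adjusted p of 0.184. With the smooth muscle score as a covariate it was 0.97 (limma adjusted p = 0.0302).

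**Figure D4:**
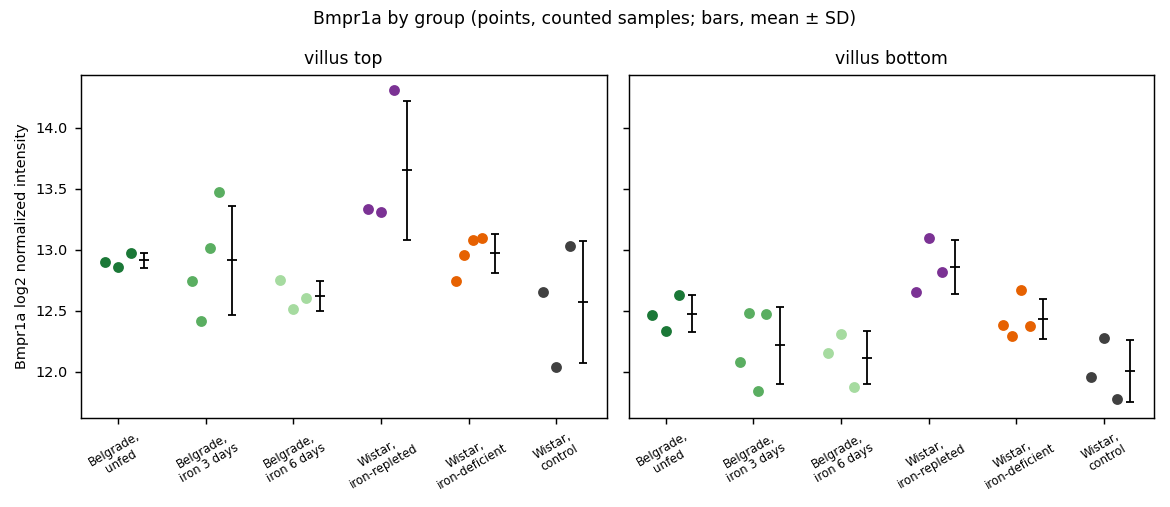
Bmpr1a level (log2 normalized intensity) by group at the villus top (left panel) and bottom (right panel), with a point per counted sample and bars for the mean ± SD. Repleted Wistar rats (13.65 ± 0.57 at the top and 12.86 ± 0.22 at the bottom) lie above control rats (12.57 ± 0.50 and 12.01 ± 0.25).

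Among the other 9 members the differences between groups lay between -0.66 and 0.55 by their brightest probe sets, and none was called. The dim second probe set of Bmpr2 differed more in bottom arrays, by -2.27 between unfed Belgrade and control rats and by -2.03 between repleted and control rats (limma adjusted p = 0.747 and 0.330). Id1 was 0.38 ± 0.17 higher in deficient and 0.46 ± 0.19 higher in unfed Belgrade than in control rats (SE, limma adjusted p = 0.330 and 0.771), the same 3 control samples entering both. Id2 was 0.55 higher in repleted than in control rats by its brightest probe set and 0.04 higher by the other (limma adjusted p = 0.421 and 0.967). Bmp6 at the top alone was 0.53 higher in deficient and 0.58 higher in unfed Belgrade than in control rats (limma adjusted p = 0.340 and 0.680).

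No difference of Grem1 between groups was called in the bottom arrays. It was lower than in controls by -1.44 ± 0.85 in deficient rats and by -1.57 ± 0.91 in Belgrade rats without added iron (SE, limma adjusted p = 0.491 and 0.756). The smooth muscle score in the same arrays was 12.61 in deficient, 12.71 in those Belgrade and 14.02 in control rats. With the score as a covariate the Grem1 differences were 0.24 ± 0.36 and -0.01 ± 0.38 (limma adjusted p = 0.915 and 0.9999). Repleted rats were 0.97 ± 0.85 above deficient rats, with muscle scores of 14.05 and 12.61, and -0.75 ± 0.37 with the covariate (limma adjusted p = 0.669 and 0.530). After 6 days of iron Belgrade rats were 1.32 ± 0.91 above those without, with scores of 13.48 and 12.71, and 0.40 ± 0.36 with the covariate (limma adjusted p = 0.994 and 0.997). Without the 5 samples rich in pancreas markers, and with no covariate, the differences from control were -2.29 in deficient rats and -3.02 in Belgrade rats without added iron, and that of 6 days of iron from none was 2.40 (limma adjusted p = 0.384, 0.518 and 0.948). The covariate and the omission of those samples were added after the data had been seen.

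**Figure D5:**
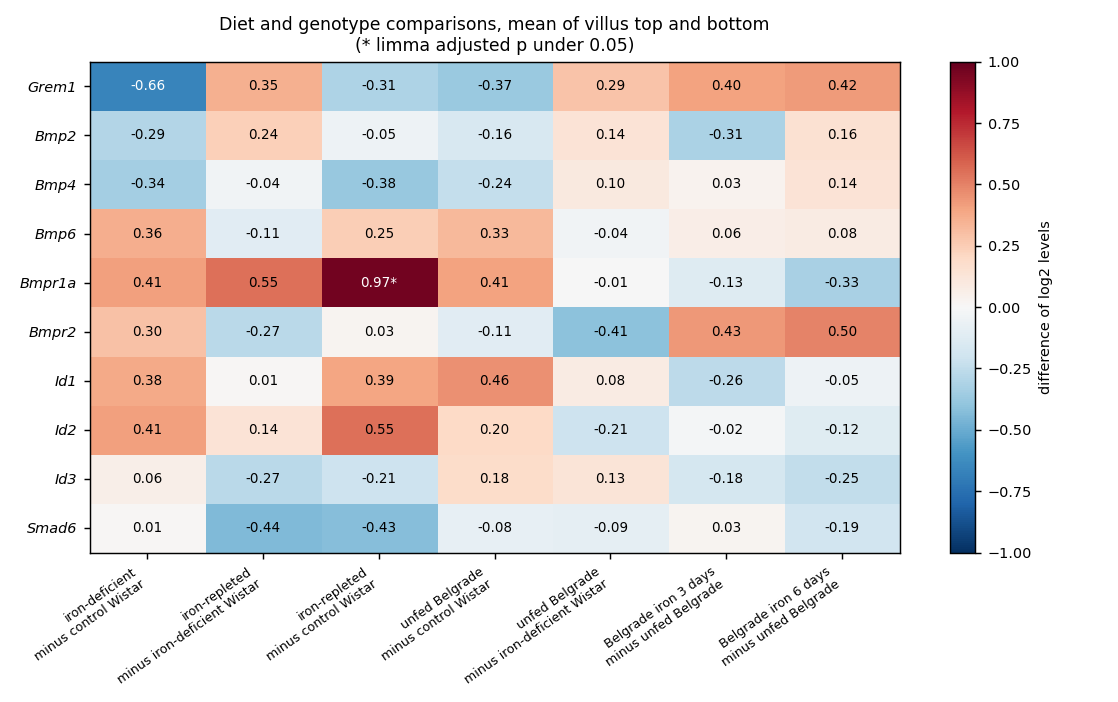
Differences of log2 levels, mean of villus top and bottom, for the 10 genes (rows) in the 7 comparisons (columns), with the value in each cell, red for higher in the group named before minus, blue for lower, and an asterisk for a limma adjusted p under 0.05. Bmpr1a in repleted minus control rats (0.97) is the only cell with an asterisk, a call known when the members were chosen.

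Whether the gradient along the villus itself depended on iron or genotype was tested on the top minus bottom difference of each rat across the 6 groups. Limma's moderated F test called 0 of the 18 member probe sets, beside 0.00754% of all, with 1 at an unadjusted p under 0.05 (7.74% of all), the dimmest Smad6 probe set (adjusted p = 0.592). For Grem1 the adjusted p was 0.898, with mean differences of -4.33 in Belgrade rats without added iron, -5.38 and -6.13 after 3 and 6 days of iron, -6.42 in repleted, -5.18 in deficient and -6.73 in control Wistar rats. For Bmp2 it was 0.986, and all 6 group means lay between 1.91 and 2.13. The SD of the Grem1 difference within groups was 0.98 to 2.79.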

How the data were processed

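Villus top and bottom sections of 22 rats gave 44 arrays, and 1 further rat gave 2 arrays labelled crypt. The authors deposited linear intensities for every probe set of each array; their signal algorithm is not given in the sources used here. Of 31099 probe sets, 57 controls were left out, and 20826 have a single symbol in the annotation of 2016. A pseudocount of 43.5, the 10th percentile over villus arrays, was added before log2. Because array medians spanned 0.93 on that scale, the villus arrays were quantile normalized, and the crypt arrays were mapped to the same distribution. A probe set passed the filter if it exceeded the 40th percentile of its array in at least 3 villus arrays.

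Pairs of rats with a robust SD of their differences under 0.2 in both segments (0.147 to 0.179, against 0.231 or more for other pairs) were averaged. Groups, slopes and the top minus bottom difference were fitted with lmFit and eBayes with a trend (limma version 3.58.1, R version 4.3.3, data.table version 1.17.8), with Benjamini-Hochberg adjustment over all kept probe sets, two-sided, and a threshold of 0.05. P-values measure the spread between the counted samples. The fits were also run on simulated data with independent noise for each probe set. Those data lack effects shared by the probe sets of a section, such as its muscle content. They therefore do not show that the calls hold here. Top and bottom arrays of a rat are paired by the labels. The top array correlated best with its own bottom array in 19 of 22 rats, although these own correlations were weak (r = 0.0006 to 0.214). Rat numbers were not used to pair groups: same-numbered rats all correlated above 0.1 in 0 of 15 group pairs.

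The members, the other pathway genes, the marker lists and the tests were chosen with earlier results of these data known, and the call of Bmpr1a was among those results. Named genes are the 10 members, with values per sample for Grem1, for members called and for the 3 largest top minus bottom differences, up to 4 called genes per comparison from the pathway list, and the 3 genes most like a member. Id4, Smad1, Smad5 and Nog were named after their values were seen, as were the pathway genes with the largest top minus bottom differences. Marker scores are mean log2 levels over a list, with the brightest probe set per gene. Alternatives covered normalization, pseudocount, filter, trend, rats counted, covariates and each sample left out. Samples whose bottom array had an exocrine pancreas score above 12 were also left out together.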

Additional observations from a re-analysis of the deposited data

Results flagged for a closer look

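Over the 10 genes, 40 sets of 4 samples (the 2 groups of 4 counted samples, top and bottom) were checked for a sample far from the other 3, and 2 stood out, as about 1 in 20 would by chance. Grem1 at the villus top of iron-deficient rat 4 was 9.29, against 5.73 to 6.15 in the other 3 deficient rats. That array had a smooth muscle score of 12.09, an enteric nerve and glia score of 8.06 and a crypt and cycling score of 9.36, each within the range of the other top arrays. Bmp2 at the top of iron-deficient rat 3 was 13.21, against 13.55 to 13.59 in the other 3.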

How the results depend on the processing

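The rise of Bmpr1a in repleted against control rats was the only call among the 7 comparisons of members, and the count of members called was 0 with the values as deposited, with median centring, without the trend, in top or bottom arrays alone, with only the 2 groups fitted and without the 5 samples rich in pancreas markers (added later), and 0 to 1 with single samples left out. Over 34 alternatives its difference was 0.72 to 1.10, with limma adjusted p between 5.80e-04 and 0.198, and it was called in 15. With all 22 rats counted and the rat number as a replicate block it was 1.02 (limma adjusted p = 5.80e-04), with 1 member called in that comparison and 0 in the other 6. The share of all kept probe sets called there is not given. That setting counts the near-identical rats separately and blocks on rat numbers that did not pair the groups, so its p-value should not be relied on. Without the pairing of top and bottom the Grem1 difference was -5.69. The slope of Grem1 in bottom arrays was called in all 31 alternatives (1.13 to 2.05). The highest of these was the slope on the fibroblast and matrix score, used in place of the muscle score. In top arrays 5 member probe sets, of 4 genes, were called with median centring, 1 without the pancreas-rich samples and 0 to 1 with single samples left out. For the first 2 settings the calls among all kept probe sets are given above, and for single samples left out they are not given. With the muscle score as covariate, added later, Grem1 in bottom arrays changed sign in deficient minus control (0.24) and in repleted minus deficient rats (-0.75), neither called. In all 29 alternatives 9 of 10 genes were higher at the top. The number of arrays limits precision, and dim top values of Grem1 limit the size of its difference.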
